A study of Mus musculus with 12 samples.

Results

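Gstp1, Gstm1, Gstm2 and Mgst1 are 4 glutathione transferase genes that were measured by 6 cDNA clones in the livers of mice lacking hemopexin, haptoglobin or both. They are 4 of 918 named genes, and their 6 clones belong to 2151 measured clones among 15600 on the array. The genes had been selected on their ratios between null and wild-type liver in an earlier pass over the same values, so those ratios are given as a description, without a p. The members are every measured clone of these genes, and no other clone of the glutathione transferase family held a value.

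Each array compared RNA of a pooled null liver with RNA of pooled liver from wild-type mice (Hp+/Hx+), with 4 arrays for each null. Hx-null mice lacked both copies of the hemopexin gene (Hx-/-), Hp-null mice both copies of the haptoglobin gene (Hp-/-), and the HpHx-null group lacked both genes. All mice were littermates bred from F1 mice heterozygous for both genes on a mixed C57/BLJ6 X 129Sv background, and a pool held at least 5 adults whose livers had been flushed with PBS. The sources used here give neither sex nor exact age, and name no second pool of any genotype. A p-value therefore measures how arrays of the same pools spread, not how mice do. All null pools were set against a single control pool, so its own variation enters no error given here. The platform annotation names neither deleted gene, which leaves the genotype labels without a check on the array.

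Glutathione transferases join glutathione to reactive electrophiles and so prepare them for export. The cytosolic enzymes fall into classes, of which the pi class holds Gstp1 and the mu class holds Gstm1 and Gstm2, while Mgst1 is an unrelated enzyme of the endoplasmic reticulum and outer mitochondrial membranes that also reduces lipid peroxides. In mouse liver many of these enzymes are made by hepatocytes, Gstp1 is higher in males than in females, and several family members are induced through NRF2, a transcription factor that answers oxidative and electrophilic stress. Hemopexin and haptoglobin are plasma proteins that bind free heme and free hemoglobin, which are pro-oxidant.

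The windows upstream of the members' start sites are shown because they hold short motifs known from the promoters of detoxification genes. Each holds the 250 bases before a RefSeq start site on assembly GRCm38.p6, read along the gene's strand. Capitals mark the antioxidant response element core (TGACNNNGC), the AP-1 site (TGAGTCA), the TATA box (TATAAA) and the GC box (GGGCGG), each searched on both strands. Of Gstm1 and Mgst1, which have 2 listed starts each, the window holding a motif is printed.
Gstp1, chr19:4037913-4038162, minus strand: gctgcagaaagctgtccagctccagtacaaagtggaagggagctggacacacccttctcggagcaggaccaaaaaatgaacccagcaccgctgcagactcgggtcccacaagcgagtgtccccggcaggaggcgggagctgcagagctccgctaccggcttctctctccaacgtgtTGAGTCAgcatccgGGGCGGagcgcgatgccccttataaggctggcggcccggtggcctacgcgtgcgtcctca
Mgst1, chr6:138140277-138140526, plus strand: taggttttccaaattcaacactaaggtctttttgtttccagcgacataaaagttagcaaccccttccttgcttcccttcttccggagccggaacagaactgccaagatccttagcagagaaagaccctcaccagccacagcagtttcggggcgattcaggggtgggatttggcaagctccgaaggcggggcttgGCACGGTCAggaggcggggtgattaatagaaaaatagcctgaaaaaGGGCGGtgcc
Gstm1, chr3:108017819-108018068, minus strand: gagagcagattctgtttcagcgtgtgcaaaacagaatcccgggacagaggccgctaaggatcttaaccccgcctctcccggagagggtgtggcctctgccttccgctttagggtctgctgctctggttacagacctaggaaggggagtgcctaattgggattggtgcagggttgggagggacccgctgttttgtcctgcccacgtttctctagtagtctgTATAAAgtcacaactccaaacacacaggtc
Gstm2, chr3:107986421-107986670, minus strand: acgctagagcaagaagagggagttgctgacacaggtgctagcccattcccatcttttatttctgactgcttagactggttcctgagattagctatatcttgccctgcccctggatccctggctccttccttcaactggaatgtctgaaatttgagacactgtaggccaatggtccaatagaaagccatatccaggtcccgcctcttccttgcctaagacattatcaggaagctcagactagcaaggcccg

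The Gstp1 window has an AP-1 site starting 74 bases upstream of the start and a GC box 60 bases upstream. The Mgst1 window has an antioxidant response element core on the opposite strand 56 bases upstream and a GC box 10 bases upstream. The Gstm1 window has a TATA box 30 bases upstream, and the Gstm2 window has none of the 4 motifs. Of all 32851 RefSeq windows of this length, 4.46% hold the AP-1 site, 10.2% the antioxidant response element core, 12.4% the TATA box and 32.7% the GC box. The window of Gstp2, the neighbouring copy of Gstp1, holds the same AP-1 site 89 bases upstream and GC boxes 75 and 63 bases upstream. These matches describe the letters, and no binding was measured.

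Every gene name rests on an inferred numbering, in which a spot takes the annotation of the spot at the same distance from the other end of the array, so that the first spot carries the name listed for the last. By it, 6 of 16 clones of the family held values, against 3 by the direct numbering (Gsta4, Mgst1 and Mgst3). Among 3476 pairs of clones of the same gene, both clones were measured in 205 pairs by the reversed numbering and in 63 by the direct one. The family genes on the array without a value were Alox5ap, Gsta4, Gstcd, Gstm4, Gstm5, Gstm6, Gstm7, Gsto1, Mgst3 and Ptges. Long cDNA clones can also bind RNA of close relatives, so the Gstp1 value may include Gstp2 and the Gstm1 and Gstm2 values other mu-class transcripts. This was not tested.

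The values are log2 ratios of null and wild-type liver, with each array centred on its median so that 0 is the middle of that array. No source used here states which way a ratio runs, and the values do not settle it. The 12 arrays fell into 2 blocks of 6, with 2 arrays of each genotype in either block, and the first principal component that separates them held 72.8% of the sum of squares over 1162 complete clones. Arrays of the same block correlated at 0.46 to 0.89, and arrays of different blocks at -0.79 to -0.14. Block A held Hx-null replicates 1 and 2, Hp-null replicates 2 and 3 and HpHx-null replicates 1 and 4, and differs from the labelled dye on 4 arrays. Arrays of the same genotype and the same labelled dye correlated at -0.77 to -0.55 in Hp-null and at -0.63 to -0.23 in HpHx-null, against 0.81 to 0.83 in Hx-null. Ratios are therefore given with the sign as deposited, which reads as null over wild-type if the submitters had already turned the swapped arrays, and with the sign turned afterwards. What makes the blocks differ was not tested. The number of arrays limits the precision, and an array held 3009 to 4165 of 31200 spots.

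Gstp1, the pi-class enzyme, had ratios below 0 in all 3 nulls, and its mean over the 12 arrays was the lowest of any feature measured on all of them. In the Hx-null pool its ratios on replicates 1 to 4 were 0.01, -0.46, -1.56 and -1.44. In the Hp-null pool they were -1.15, -0.01, -0.09 and -1.11. In the HpHx-null pool they were -0.82, -1.57, -0.89 and -0.41. The ratio was below 0 on 11 of 12 arrays, the exception being 0.01 in Hx-null replicate 1, and the ranges of the 3 genotypes overlapped. The means were -0.86 ± 0.77, -0.59 ± 0.63 and -0.92 ± 0.48 in Hx-null, Hp-null and HpHx-null (SD, n = 4 arrays each), which are sizes of 1.82-fold, 1.51-fold and 1.89-fold. In all 3 nulls both block B arrays lay below both block A arrays. The block A means were -0.22, -0.05 and -0.61 for Hx-null, Hp-null and HpHx-null, and the block B means were -1.50, -1.13 and -1.23.

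Over all 12 arrays the Gstp1 mean was -0.79 ± 0.59 (SD, n = 12), first from the bottom of 1129 features measured on every array, also with the values as deposited and with quantile scaling. Of those features, 7 (0.62%) were below 0 on at least 11 arrays. The 2 spots of its clone differed by a median of 0.11 and at most 0.22 within an array, so the swing between blocks is much wider than the difference between duplicate spots.

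**Figure D1:**
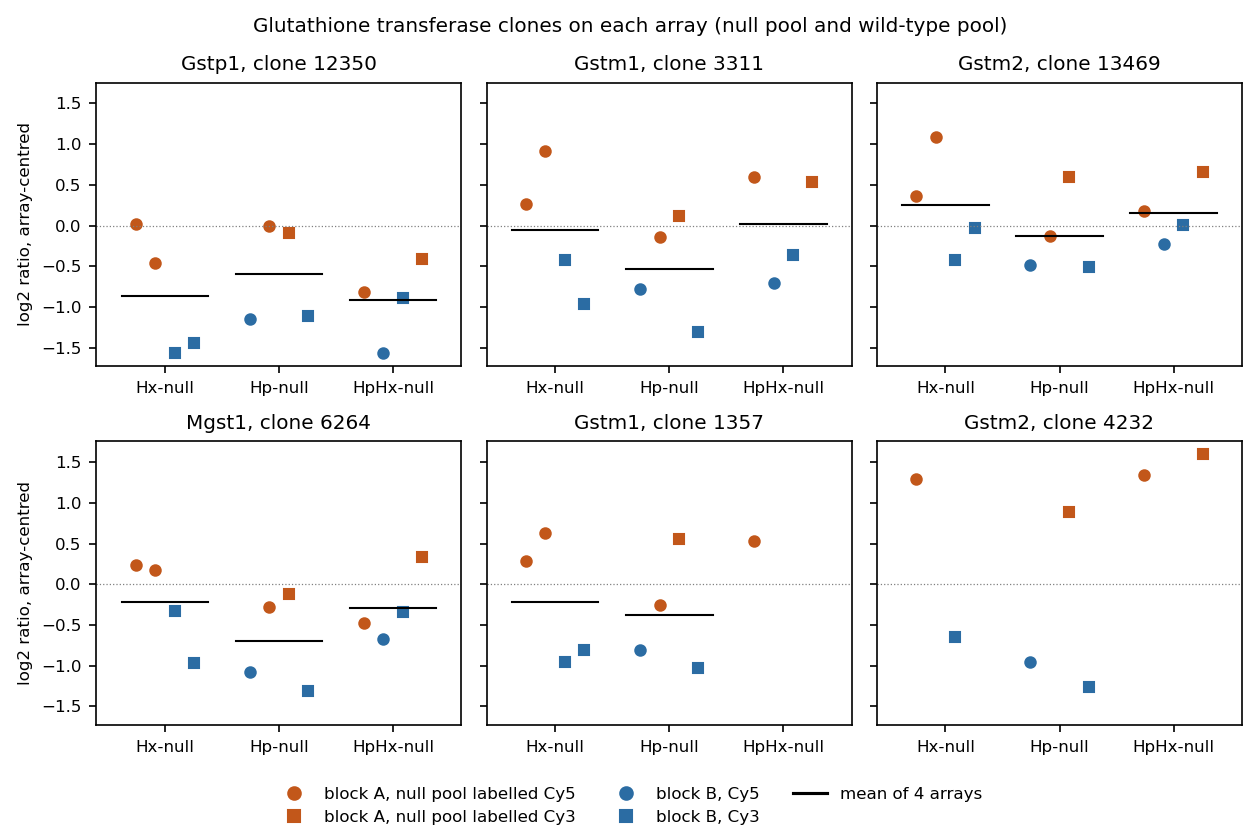
Centred log2 ratio (vertical axis, sign as deposited) of each of the 6 clones on each array, grouped by null genotype; colour gives the block, shape the labelled dye of the null pool, and a bar the mean where all 4 arrays held a value. Gstp1 lies below 0 on 11 of 12 arrays, and the orange block A points lie mostly above the blue block B points.

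Mgst1, the membrane-bound enzyme, was the member with the lowest mean ratio in the Hp-null pool. Its ratios there were -1.08, -0.27, -0.12 and -1.31 on replicates 1 to 4. In the Hx-null pool they were 0.24, 0.18, -0.33 and -0.96. In the HpHx-null pool they were -0.48, -0.67, -0.34 and 0.34. All 4 Hp-null arrays were below 0, whereas 2 Hx-null arrays and 1 HpHx-null array were above it, and the ranges of the genotypes overlapped. The means were -0.22 ± 0.56, -0.70 ± 0.59 and -0.29 ± 0.44 in Hx-null, Hp-null and HpHx-null (SD, n = 4). The mean over 12 arrays was -0.40, the sixth lowest of the 1129 features, and the gap between blocks, 0.76, was the smallest of the 4 genes.

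Gstm1, a mu-class enzyme measured by clones 3311 and 1357, had means near 0 in Hx-null and HpHx-null and below 0 in Hp-null. Averaged over its clones, the Hx-null ratios were 0.27, 0.77, -0.69 and -0.89. The Hp-null ratios were -0.79, -0.20, 0.34 and -1.17. The HpHx-null ratios were 0.56, -0.70, -0.36 and 0.53. In Hx-null and HpHx-null both block A arrays were above 0 and both block B arrays below it, so the means of -0.13 ± 0.79 and 0.01 ± 0.64 (SD, n = 4) average 2 separate pairs. The Hp-null mean was -0.46 ± 0.66 (SD, n = 4), with 3 of 4 arrays below 0. The clones gave the same picture, with Hp-null means of -0.53 for clone 3311 and -0.38 for clone 1357 and a correlation of 0.92 over the 9 arrays both held, or 0.62 after the block difference was removed. Clone 1357 held a value on 1 HpHx-null array alone, replicate 1, where it read 0.53 and clone 3311 read 0.60.

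Gstm2, the second mu-class enzyme, was the member with means above 0 in Hx-null and HpHx-null. Its ratios, averaged over clones 13469 and 4232 where both held a value, were 0.83, 1.09, -0.53 and -0.03 in Hx-null. In Hp-null they were -0.72, -0.13, 0.74 and -0.88. In HpHx-null they were 0.76, -0.23, 0.01 and 1.13. The means were 0.34 ± 0.75, -0.25 ± 0.74 and 0.42 ± 0.63 in Hx-null, Hp-null and HpHx-null (SD, n = 4), and the ranges overlapped. The clones differed in size: over the 7 arrays both held, clone 4232 had an SD of 1.23 and clone 13469 one of 0.52. They correlated at 0.93 over these arrays, but at 0.07 after the block difference was removed.

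Clone 4232 rests on 1 spot, and in HpHx-null it held a value on the block A arrays only, where it read 1.34 and 1.60. Clone 13469 on its own, measured on all 12 arrays, had means of 0.25 ± 0.65, -0.13 ± 0.51 and 0.15 ± 0.38 in Hx-null, Hp-null and HpHx-null (SD, n = 4). The HpHx-null mean of Gstm2 is thus 0.42 with clone 4232 and 0.15 without it.

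In the limma fit of all features with 1 coefficient per genotype and the labelled dye as a term, 0 of the 4 genes passed an adjusted p of 0.05 in any null. The share of all features that passed in that fit was 0.643% in Hx-null (12 of 1865), 0% in Hp-null (0 of 2017) and 0% in HpHx-null (0 of 1711). At an unadjusted p under 0.05, 48 features passed in Hp-null and 93 in HpHx-null. The standard errors of the members were 0.26 to 0.34. With the block as the term in place of the labelled dye, the standard errors were 0.11 to 0.13 and the genes that passed numbered 1, 3 and 1 of 4 in Hx-null, Hp-null and HpHx-null. The share of all features was then 2.09%, 2.78% and 5.61%. Since the same contrasts chose the genes, nothing is read from these counts.

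Gstp1 was the gene past the threshold with the block term in Hx-null and HpHx-null, and Gstp1, Gstm1 and Mgst1 were those in Hp-null. With each of the 12 arrays left out in turn, Gstp1 passed in all 12 fits in Hx-null (-1.01 to -0.79) and in HpHx-null (-1.12 to -0.77). In Hp-null it passed in 8 of 12, being lost without Hp-null replicate 1, 2 or 4 or HpHx-null replicate 4. Mgst1 in Hp-null passed in 9 of 12, being lost without Hp-null replicate 1, 2 or 4, and Gstm1 in Hp-null in 4 of 12. With quantile scaling, the Hp-null values of Gstp1, -0.38, and Gstm1, -0.30, no longer passed. Among the features measured on all 12 arrays, Gstp1 and Gstm1 in Hp-null did not pass either. The same contrasts chose the genes, and the block was read from the same values. The passes in these fits therefore describe how the values depend on single arrays and carry no test.

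**Figure D2:**
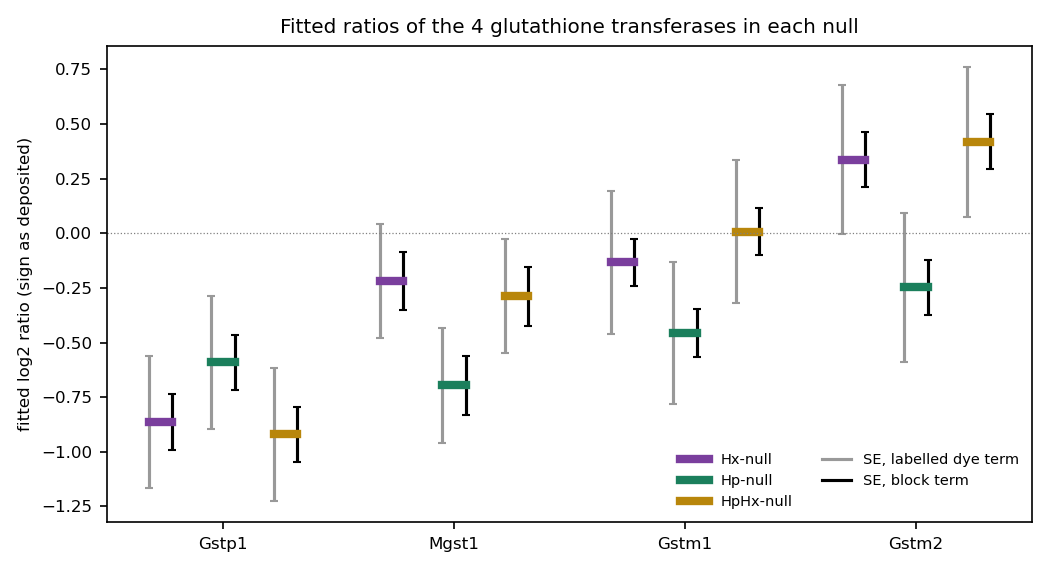
Fitted log2 ratio (vertical axis, sign as deposited) of the 4 genes in each null, with coloured bars for the estimate and whiskers for its standard error with the labelled dye term (grey) and with the block term (black). Gstp1 lies between -0.92 and -0.59 in the 3 nulls, Mgst1 is lowest in Hp-null at -0.70, and the standard errors are 0.26 to 0.34 with the dye term and 0.11 to 0.13 with the block term.

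The median over the 4 genes was -0.18, -0.52 and -0.14 in Hx-null, Hp-null and HpHx-null, beside medians over all tested features of -0.00, -0.02 and -0.02. In Hp-null all 4 genes were below 0, in Hx-null 3 of 4 and in HpHx-null 2 of 4. With medians just below 0, the tested features as a whole were also below 0 at least as often as above it. The genes were selected on these ratios, so nothing is read from these medians and counts.

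With the sign turned, the values of the members changed. Turning the arrays with the null pool in Cy3, as for values that are Cy5 over Cy3, gave Gstp1 0.64, 0.01 and -0.27 in Hx-null, Hp-null and HpHx-null, each with a standard error of 0.23. Under the same turn Gstm1 had 0.66, -0.04 and -0.08, Gstm2 had 0.62, -0.18 and -0.15, and Mgst1 had 0.43, 0.02 and -0.28. Turning the arrays by block in place of the labelled dye gave values above 0 for all 4 genes in all 3 nulls. Gstp1 then had 0.64, 0.54 and 0.31, Gstm1 0.66, 0.52 and 0.54, Gstm2 0.62, 0.55 and 0.53, and Mgst1 0.43, 0.50 and 0.22 in Hx-null, Hp-null and HpHx-null. The block was read from the same values, and turning the other block would give these values with the opposite sign. The direction of the members between null and wild-type liver is therefore not settled by these arrays.

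Differences between the null genotypes were tested, 3 for each gene and 12 in all. Each is a difference between ratios on which the genes had been selected, so these tests are not independent of that selection. Their p-values and intervals are therefore given as a description. None passed the adjusted threshold in limma, either with the labelled dye term (lowest adjusted p = 0.997) or with the block term (lowest adjusted p = 0.17). Without adjustment, 0 of 12 passed 0.05 with the labelled dye term and 4 of 12 with the block term. Of all features, 260 of 1848 passed 0.05 without adjustment for Hp-null minus Hx-null with the block term. For HpHx-null minus Hx-null it was 90 of 1654, and for HpHx-null minus Hp-null 207 of 1690. With the labelled dye term these counts were 28, 15 and 34. The shares of all features that passed after adjustment were, with the labelled dye term, 0.595% for Hp-null minus Hx-null, 0% for HpHx-null minus Hx-null and 0% for HpHx-null minus Hp-null, and with the block term 1.14%, 0.181% and 0%.

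Gstm2 gave the lowest adjusted p, its ratio being 0.67 higher in HpHx-null than in Hp-null with a standard error of 0.18 and a 95% interval of 0.28 to 1.05 (limma with the block term, unadjusted p = 0.0023, adjusted p = 0.17). With the labelled dye term the interval of the same difference was -0.41 to 1.75. Between Hp-null and Hx-null, Gstm2 differed by -0.58 (limma with the block term, adjusted p = 0.175), and this difference passed at -0.74 when Hp-null replicate 3 was left out, a choice made after the data were seen. Both Gstm2 differences include clone 4232, of 1 spot, whose values were uneven over the blocks. In Hp-null it held values on block B replicates 1 and 4 (-0.96 and -1.26) but on block A replicate 3 alone (0.89). In HpHx-null it held values on the block A arrays only. Clone 13469 alone had means of 0.25, -0.13 and 0.15 in Hx-null, Hp-null and HpHx-null, which lie closer together. Gstm1 was 0.46 higher in HpHx-null than in Hp-null (95% interval 0.13 to 0.80, limma with the block term, adjusted p = 0.254). With the labelled dye term its interval was -0.57 to 1.49. Mgst1 differed by -0.48 between Hp-null and Hx-null (95% interval -0.89 to -0.07, limma with the block term, adjusted p = 0.307). With the labelled dye term its interval was -1.30 to 0.35. The block behind the narrower intervals was read from the same values. In each of these 4 differences the Hp-null pool had the lower ratio as deposited. They are named here because they passed without adjustment with the block term, and all of them share the same Hp-null pool. The Gstm2 differences also share a gene, and the mu-class clones can share RNA. The genes had been selected on ratios that include those in Hp-null, so nothing is read from this shared direction.

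For Gstp1 the order of the means was HpHx-null, Hx-null and Hp-null from the bottom, and neighbours in that order did not differ beyond their spread. The difference between HpHx-null and Hx-null was -0.06 with an interval of -0.44 to 0.33, and that between Hp-null and Hx-null was 0.27 with an interval of -0.11 to 0.66 (both 95%, block term). Turned by block, the 12 differences ran from -0.33 to 0.07, and turned by the labelled dye from -0.91 to 0.03. None passed under either turn.

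The 4 genes had block swings of similar size but different mean levels. On the plot of features measured on all 12 arrays, the swing between blocks (mean of block A minus mean of block B) was 0.99 for Gstp1, 1.15 for Gstm1, 1.14 for Gstm2 and 0.76 for Mgst1. Of the 1129 features, 14.5% had a swing of at least the size of Gstp1's, 11.7% of Gstm1's, 11.8% of Gstm2's and 20.6% of Mgst1's. The means over 12 arrays placed Gstp1 first, Mgst1 sixth, Gstm1 at rank 25 and Gstm2 at rank 1031 from the bottom. The means of Gstm1 and Gstm2 were -0.19 and 0.17, beside a median over all 1129 features of -0.02. These ranks describe the ratios that selected the genes and carry no test.

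**Figure D3:**
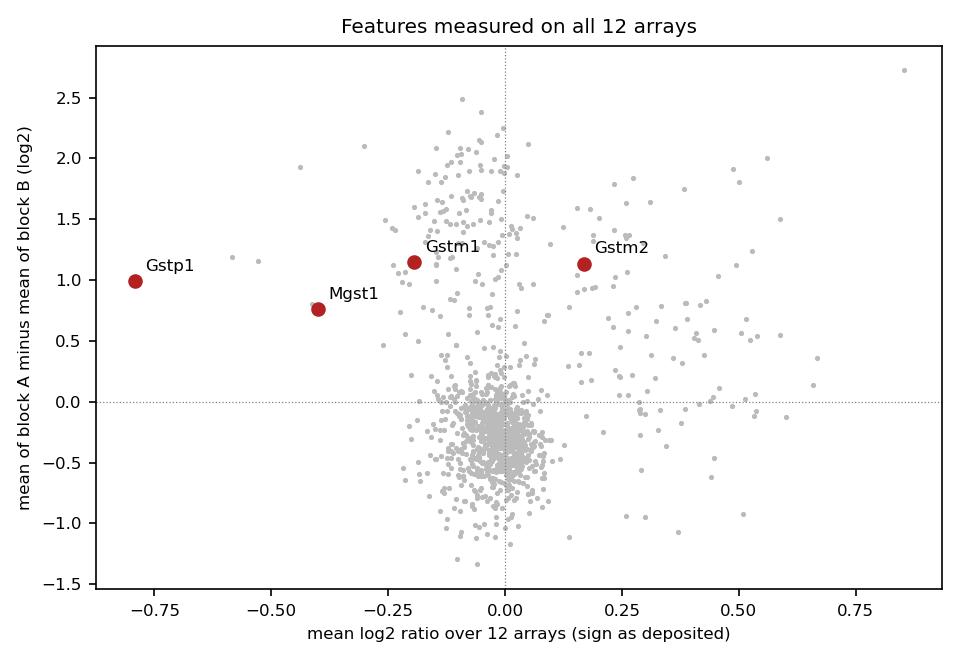
Mean log2 ratio over 12 arrays (horizontal axis, sign as deposited) against the mean of block A minus the mean of block B (vertical axis, log2) for the 1129 features measured on all arrays, with the 4 glutathione transferases in red. Gstp1 lies at the left end at -0.79, Mgst1 at -0.40, and all 4 genes have a positive block difference of 0.76 to 1.15.

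The genes moved together across arrays, mostly with the block. Over the 12 arrays, Gstm1 and Gstm2 correlated at 0.94, Gstm1 and Mgst1 at 0.84, and Gstm2 and Mgst1 at 0.84. Gstp1 correlated with Gstm1 at 0.71, with Gstm2 at 0.65 and with Mgst1 at 0.68. Many other genes moved the same way. Over 678 named genes measured on at least 11 of the same arrays, the 95th percentile of the correlation was 0.83 for Gstp1. It was 0.93 for Gstm1, 0.90 for Gstm2 and 0.85 for Mgst1, and the mu-class pair alone lay above these values. After the block difference was removed from each gene, the mu-class pair still correlated at 0.81 and each of them with Mgst1 at 0.58 and 0.57. Gstp1 then correlated at -0.35 with Gstm1, -0.29 with Gstm2 and 0.06 with Mgst1. The 95th percentiles were then 0.37 for Gstp1, 0.72 for Gstm1 and Gstm2 and 0.70 for Mgst1, and again the mu-class pair alone lay above them. These are descriptions over 12 arrays that share the wild-type pool and, within a genotype, the null pool, and the mu-class clones can share RNA.

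The named genes whose ratios were most like a member's, among 678 measured on at least 11 of the same arrays and after the block difference was removed, differed from gene to gene. Gstp1 was most like Tbl3 (r = 0.75), Ovgp1 (0.74) and Ppp4r2 (0.64), where the 95th percentile of all candidates was 0.37. Gstm1 was most like Pip4p1 (0.90), the selenoprotein gene Selenow (0.86) and Ttc12 (0.85), with a 95th percentile of 0.72. Gstm2 was most like the translation elongation factor gene Eef1a1 (0.91), Selenow (0.87) and the urea transporter gene Slc14a1 (0.86), with a 95th percentile of 0.72. Mgst1 was most like Tpt1 (0.90), Tgoln1 (0.89) and Ttr (0.89), which encodes the plasma carrier transthyretin, with a 95th percentile of 0.70. Selenow is thus in the lists of both mu-class genes, and none of the 3 genes nearest to Gstp1 is in another member's list. Without removal of the block difference, the nearest genes to Gstp1 were Ovgp1 (0.94), Hcfc1 (0.90) and Pdxdc1 (0.89).

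Around the transferases, few genes of the glutathione pathway were measured. The lists used here and in the paragraphs that follow were chosen with earlier results of these data known. The p-values of their genes are therefore given as a description. Of 34 genes of glutathione supply and use, 16 were on the array and 1 was measured, Gpx1, the glutathione peroxidase that reduces hydrogen peroxide. Its ratios were -0.00, -0.34 and -0.27 in Hx-null, Hp-null and HpHx-null, and it passed in none with either term. Of 26 genes of other conjugation pathways, 2 were on the array and 0 measured.

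Of 36 NRF2 targets and antioxidant genes, 20 were on the array and 10 measured, and 0 passed with the labelled dye term. With the block term, 0 of 10 passed in Hx-null, 2 of 10 in Hp-null, both below 0, and 2 of 8 in HpHx-null, 1 on either side of 0. The share of all features that passed with it was 2.09%, 2.78% and 5.61%. Ftl1, the ferritin light chain that stores iron, was -0.94 in Hp-null (SE 0.07; limma with the block term, adjusted p = 9.04e-06) and -0.38 in HpHx-null (limma with the block term, adjusted p = 0.00861). Aldh1a1, a retinaldehyde dehydrogenase, was -0.46 in Hp-null (limma with the block term, adjusted p = 0.0321). Cat, the catalase gene, was 0.55 in HpHx-null (limma with the block term, adjusted p = 0.0343). Sod1, the copper-zinc superoxide dismutase, was -0.49 in Hx-null and -0.39 in Hp-null and passed in neither (limma with the block term, adjusted p = 0.0813 and 0.0899). The other genes measured were Txn1, Prdx1, Prdx2, Akr1a1, Tkt and Fth1. The list's medians were -0.09, -0.23 and -0.09 in Hx-null, Hp-null and HpHx-null with the block term, beside -0.02, -0.01 and -0.03 over all features. Hmox1 and Nqo1, the targets most used to read heme and electrophile stress, held no value.

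Because Gstp1 is male-biased in mouse liver, other sex-biased genes are given beside it. This list, too, was chosen with earlier results of these data known, so its p-values are a description. Of 12 male-biased genes 3 were measured, Gstp1 among them. Nudt7, a peroxisomal coenzyme A hydrolase, was -0.71, -0.36 and -0.63 in Hx-null, Hp-null and HpHx-null, and passed with the block term in Hx-null and HpHx-null (limma, adjusted p = 0.00122 and 0.00861). Serpina1e, a serine protease inhibitor made by hepatocytes, had 0.66, 0.53 and 1.37 and passed in HpHx-null with the block term (limma, adjusted p = 0.00269). The single female-biased gene measured, Prom1, had -0.04, 0.18 and -0.09. The part of the pools' sex in the Gstp1 values was not tested.

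Ratios of liver to liver cannot check the tissue label, and hepatocyte markers are given as a description. Of the 8 on the array, 6 were measured (Alb, Apoa1, Ttr, Serpina1e, Mat1a and Bhmt). The median ratios of these markers were 0.35, -0.09 and 0.42 in Hx-null, Hp-null and HpHx-null with the block term. The medians over all features were -0.02, -0.01 and -0.03. With that term the markers that passed numbered 1, 1 and 3 of 6 in Hx-null, Hp-null and HpHx-null. The share of all features that passed was 2.09%, 2.78% and 5.61%. In Hx-null it was Bhmt, an enzyme of methionine metabolism, at 0.66 (limma with the block term, adjusted p = 0.00111), and in Hp-null it was Ttr at -0.55 (adjusted p = 0.0386). In HpHx-null they were Bhmt at 0.42 and Mat1a, another enzyme of methionine metabolism, at 0.57 (limma with the block term, adjusted p = 0.0349 and 0.00861), beside Serpina1e at 1.37. With the labelled dye term 0 of 6 passed in any null. These markers moved in the same pools as the transferases, and their part in the transferase values was not tested. The lists of other cells were nearly unmeasured. For Kupffer cells and macrophages, 2 of 5 genes on the array held values, and of these Fcgr1, an Fc receptor, was 0.52 in HpHx-null (limma with the block term, adjusted p = 0.0139) while Fcer1g lay between -0.08 and 0.01. For neutrophils the 1 gene measured, Ltf, lay between -0.19 and -0.02. For cholangiocytes, endothelial cells, stellate cells, erythroid cells and lymphocytes 0 genes held values, so their share cannot be read from these arrays. In pooled whole liver, fewer cells of a type and less RNA per cell cannot be told apart.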

How the data were processed

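Total RNA of pooled livers was labelled directly with Cy3 or Cy5 and hybridised, null against wild-type, on two-colour spotted cDNA arrays, per the labels' protocols. The authors deposited 1 table of log ratios for 31200 spots and 12 arrays, read here as log2 values. Log base, normalization, any filter on dim spots and the ratio's direction: not given in the sources used here. Most spots held no value, so which members could be measured depends on that filter.

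Values were centred by array median, then averaged over the 2 spots of a clone and over the clones of a gene, which gave 2052 features. Symbols came from the platform annotation through the reversed numbering, checked against a RefSeq table by Entrez number (all 4 genes matched). Testing a feature needed values on 3 or more arrays per compared genotype. The model was limma 3.58.1 in R 4.3.3, fitted to the 12 arrays together (lmFit, then eBayes with the robust option), with 1 coefficient per genotype, the labelled dye as a term and Benjamini-Hochberg adjustment over all features tested at a threshold of 0.05. Every adjusted p in the text comes from limma. The fit was also run with either term on simulated data whose noise was independent between arrays. Limits for passing were set only for the block term in Hp-null against wild-type, so the labelled dye fit was not checked by them. Alternatives were the block term, values as deposited, quantile scaling, a replicate block, turned signs, features measured on all 12 arrays, single clones and each array left out.

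The members, the lists and the alternatives were chosen with earlier results of these data known. From each list the text names the genes past the threshold with either term and at most 3 others with the largest mean size, and for each member the 3 genes most correlated with it. Block A and B are the signs of each array's loading on the first principal component of the clone values, and a block difference was removed by subtracting each block's mean from a gene.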

Additional observations from a re-analysis of the deposited data

How the results depend on the processing

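With the labelled dye term 12, 0 and 0 features passed in Hx-null, Hp-null and HpHx-null. The block term gave 39, 56 and 96. Values as deposited gave 7 in Hx-null and, with the block term, 81, 82 and 116. Quantile scaling gave 4 in Hx-null and, with the block term, 54, 44 and 98. Features measured on all 12 arrays gave 0 in Hx-null and 7 in HpHx-null and, with the block term, 3, 6 and 55. Leaving out 1 array gave 0 to 13, 0 to 0 and 0 to 2 with the labelled dye term and 23 to 81, 6 to 106 and 31 to 99 with the block term. With the block term 1, 3 and 1 transferases passed in Hx-null, Hp-null and HpHx-null, and 2 NRF2-list genes each in Hp-null and HpHx-null. The cause of these moves was not tested.

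Turned by the labelled dye, Gstp1 was 0.64 in Hx-null and -0.27 in HpHx-null, Gstm1 0.66 in Hx-null, and Mgst1 0.43 in Hx-null and 0.021 in Hp-null. Turned by block, Gstp1 was 0.64, 0.54 and 0.31, Gstm1 0.66 in Hx-null and 0.52 in Hp-null, Gstm2 0.55 in Hp-null, and Mgst1 0.43, 0.50 and 0.22. Clone 4232 alone gave Gstm2 1.47 in HpHx-null with the labelled dye term. By the direct numbering, Gstp1, Gstm1 and Gstm2 had 0 measured clones.

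Of the differences between nulls, these changed sign, all in settings added after the data were seen. Turned by the labelled dye, Gstp1 Hp-null minus Hx-null was -0.63, Gstm1 HpHx-null minus Hx-null -0.73 and minus Hp-null -0.038, Gstm2 HpHx-null minus Hx-null -0.77, and Mgst1 HpHx-null minus Hp-null -0.31. Turned by block, Gstp1 Hp-null minus Hx-null was -0.10, Gstm1 HpHx-null minus Hx-null -0.12, Gstm2 HpHx-null minus Hx-null -0.095 and minus Hp-null -0.027, and Mgst1 Hp-null minus Hx-null 0.070 and HpHx-null minus Hp-null -0.28. With 1 array left out and the block term, HpHx-null minus Hx-null ran from -0.26 to 0.090 for Gstp1, -0.033 to 0.17 for Gstm2 and -0.21 to 0.14 for Mgst1, and the values of changed sign were 0.086 for Gstp1 without Hx-null replicate 1, 0.090 without HpHx-null replicate 1 and 0.00092 without HpHx-null replicate 2, -0.033 for Gstm2 without Hx-null replicate 3, and 0.032 and 0.14 for Mgst1 without Hx-null replicate 3 or HpHx-null replicate 1.

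The replicate block gave 0, 0 and 0 features and no member past the threshold. Same-numbered arrays correlated at -0.87 to 0.86, and 2 of 12 arrays correlated best with their own number, so the numbers do not pair the arrays. Depth is not given for these spots, and the number of arrays limits each value.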
